A study of Mus musculus with 7 samples.

Results

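The genes described here encode the coat of caveolae. They are the caveolins Cav1 and Cav2, the cavins Cavin1, Cavin2 and Cavin3, and the membrane-shaping proteins Ehd2 and Pacsin2, 7 of the 32285 genes counted. The set was chosen by the fold change of Cav1 between the groups, and the question was whether the rest of the coat moved with it. Cav1 is therefore given as a description without a test, and all 7 members passed the filter on low counts. The libraries came from utricles, the balance organs of the inner ear, of C57BL/6J mice at postnatal day 2. Each library pooled 12 utricles, all injured with 2 mM gentamicin for 24 h and collected 5 days after injury. The 4 Gent+Fos OE libraries also received an AAV-PHP.eB vector carrying Fos under the CMV promoter for 48 h, and the 3 Gent libraries are labelled as gentamicin controls. For the Gent group the labels give only gentamicin, a legend of the study speaks of a control AAV for this comparison, and names given to their deposited counts hold letters that can mean an shRNA, so whether these utricles received a virus is not settled. The difference between the groups therefore rests on the labels, and it could hold effects of the vector, or of an shRNA in the Gent group, that cannot be told apart from Fos. The CMV promoter is active in many cell types, and whole utricles were sequenced, so a count is a sum over hair cells, supporting cells and the tissue beneath them. In such libraries fewer cells of a type and less RNA per cell cannot be told apart.

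Caveolae are small flask-shaped pits of the plasma membrane. CAV1 builds the pit as an oligomer in the inner leaflet, and CAV2 joins it as a partner that depends on CAV1 for reaching the surface. Cavins form a peripheral coat on the caveolin scaffold, in which cavin-1 is required in all tissues and cavin-2 and cavin-3 are built in by cell type. EHD2 is an ATPase that rings the neck and holds the pit at the surface, and pacsin-2 is an F-BAR protein that bends the neck. Caveolae buffer membrane tension and are most abundant in endothelium, adipocytes and muscle.

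Library totals ran from 27879889 to 34335214 counts. Gent replicate 2 stood apart from the others, with 2.857% mitochondrial counts against 1.743 to 1.988% and the strongest tilt towards short genes (Spearman's rho of a library's deviation with gene length over genes of -0.496, against -0.221 to 0.325). Replicates differed by more than read sampling, and the errors given here are those between libraries. Fos itself gave 151.1, 150.6, 167.0 and 148.8 CPM (counts scaled to library size, by TMM throughout) with Fos (Gent+Fos OE replicates 1 to 4), and 39.5, 40.6 and 34.6 CPM in Gent replicates 1 to 3. The log2 fold change was 2.01 ± 0.126 (SE, edgeR adjusted p = 0.000142), and the counts do not separate vector from endogenous Fos.

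Cav2 and Cav1 lie side by side on chromosome 6 on the plus strand. In mm10, the build of the counts, Cav2 spans chr6:17281185-17289115 and Cav1 spans chr6:17306335-17341452, with 17219 bases between them (ENSMUSG00000000058 and ENSMUSG00000007655). The other members are scattered: Cavin1 at chr11:100956733-100970887 on the minus strand (ENSMUSG00000004044), Cavin2 at chr1:51289126-51302960 on the plus strand (ENSMUSG00000045954) and Cavin3 at chr7:105480083-105482300 on the minus strand (ENSMUSG00000037060). Ehd2 lies at chr7:15946958-15967567 (ENSMUSG00000074364) and Pacsin2 at chr15:83375607-83464606 (ENSMUSG00000016664), both on the minus strand. The upstream sequences of Cav2 and Cav1 are shown because these members had the largest log2 fold changes of the set and Fos is a subunit of AP-1, a factor that binds TGACTCA. The 250 bases before the annotated start of Cav2 and before the first of 2 annotated starts of Cav1 were taken from RefSeq on GRCm38.p6, the same build, as chr6:17280935-17281184 for Cav2 and chr6:17306085-17306334 for Cav1. Capitals mark TGACTCA. Pacsin2 is shown because it was the other member whose windows held these letters, as 61 bases, chr15:83447999-83448059 on the minus strand, before an alternative start.
Cav2: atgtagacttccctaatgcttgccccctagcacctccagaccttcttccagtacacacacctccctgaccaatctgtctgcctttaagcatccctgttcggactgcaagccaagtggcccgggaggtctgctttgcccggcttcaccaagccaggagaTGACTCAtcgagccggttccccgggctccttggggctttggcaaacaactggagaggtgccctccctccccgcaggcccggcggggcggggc
Cav1: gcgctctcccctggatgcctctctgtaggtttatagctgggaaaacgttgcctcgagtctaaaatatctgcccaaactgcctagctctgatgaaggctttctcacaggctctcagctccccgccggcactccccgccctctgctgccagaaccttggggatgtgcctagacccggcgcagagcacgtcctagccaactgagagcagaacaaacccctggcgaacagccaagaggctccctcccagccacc
Pacsin2: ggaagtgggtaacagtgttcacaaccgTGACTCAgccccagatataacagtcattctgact
The AP-1 letters, TGACTCA or its reverse complement TGAGTCA, occurred 92 bases before the Cav2 start, at chr6:17281093-17281099. In Pacsin2 they occurred 152 bases before the alternative start, at chr15:83448026-83448032. The 6 members with a RefSeq window (Cavin3 had none) gave 10 windows of 250 bases before and 50 after a start. Cav1, in both of its windows, Cavin1, Cavin2 and Ehd2 had no match. Over all 32851 RefSeq windows 5.2% held these letters. The related letters TGACGTCA, the CRE motif, which contain neither AP-1 word, were in 1.79% of windows and in none of the members'. A match is a string of letters and not a measured site, and no binding was assayed here.

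Cav1, the scaffold of the pit, was 2.06-fold higher in Gent+Fos OE. It had 179.0, 161.4, 203.6 and 171.4 CPM across the Gent+Fos OE replicates 1 to 4, and 87.1, 84.1 and 88.7 CPM across Gent replicates 1 to 3. The lowest Gent+Fos OE library lay far above the highest Gent library, and the Gent libraries lay close together. The log2 fold change was 1.05 ± 0.125 (SE), and it chose the set. Cav2, the partner of CAV1, had 94.4, 111.3, 109.0 and 99.7 CPM against 64.5, 42.3 and 66.9 CPM. The groups did not overlap, and Gent replicate 2 was the lowest library. The ratio of means was 1.79-fold, with a log2 fold change of 0.84 ± 0.168 (SE) and a 95% interval of 0.467 to 1.211. Cav2 missed the limits used for calls, which ask for an adjusted p below 0.01 and a log2 fold change beyond 0.25 either way, since the quasi-likelihood test of edgeR gave a Benjamini-Hochberg adjusted p of 0.0371 over all genes. The two-sided exact permutation p was 0.0286, the smallest that 4 against 3 libraries allow. Leaving out Gent replicate 2, its log2 fold change was 0.65 and edgeR's adjusted p 0.00713, which passed. DESeq2 also called it (log2 fold change 0.845, adjusted p 0.000335).

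**Figure D1:**
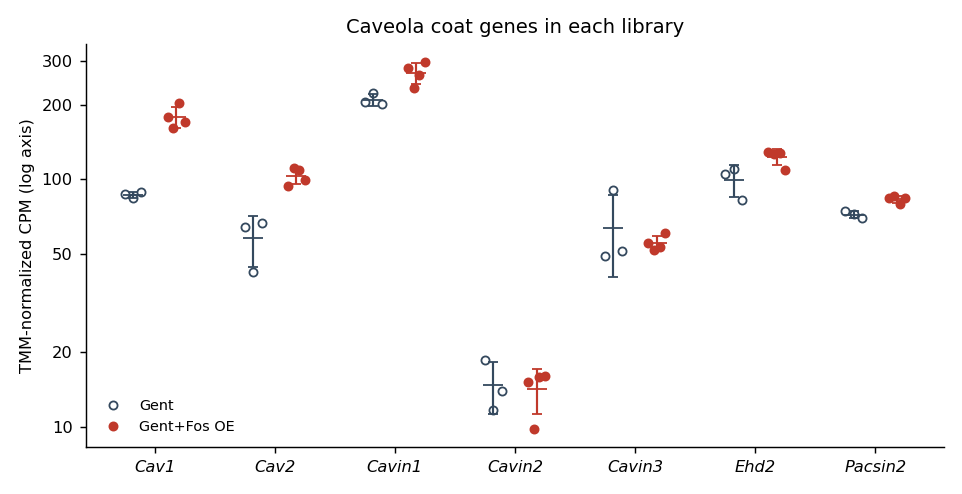
TMM-normalized CPM (log axis) of the 7 coat genes in each Gent library (open points) and Gent+Fos OE library (filled points), with bars for mean and SD. Cav1, Cav2, Cavin1 and Pacsin2 do not overlap between the groups, and Cavin3 has a high Gent library at 90.3 CPM.

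The cavins had smaller log2 fold changes than the caveolins, a gap that was not tested. Cavin1, the coat protein that caveolae need in every tissue, had 281.0, 233.7, 265.0 and 297.5 CPM in Gent+Fos OE and 205.4, 223.8 and 201.3 CPM in Gent. The groups did not overlap, but the lowest Gent+Fos OE library came near the highest Gent library. The log2 fold change was 0.36 ± 0.127 (SE), with a 95% interval of 0.078 to 0.638, and it missed the limits (edgeR adjusted p = 0.141, exact permutation p = 0.0571). Cavin2, which shapes the membrane in endothelium, was the least abundant member. It had 15.1, 9.83, 15.9 and 16 CPM in Gent+Fos OE against 18.6, 11.7 and 13.9 CPM in Gent, so the groups overlapped. Its log2 fold change of -0.05 ± 0.214 (SE) had a 95% interval of -0.521 to 0.425 (edgeR adjusted p = 0.906). Cavin3, a cavin tied to pit dynamics, had 55.2, 51.8, 53.5 and 60.6 CPM in Gent+Fos OE and 48.9, 90.3 and 51.5 CPM in Gent. Its high value fell in Gent replicate 2, and the other 6 libraries lay between 48.9 and 60.6 CPM. The log2 fold change was -0.20 ± 0.201 (SE), with a 95% interval of -0.645 to 0.242 (edgeR adjusted p = 0.547). Without Gent replicate 2 it was 0.13, and with a correction for gene length, Cavin3 being the shortest member at 1662 bases, it was 0.10.

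The neck proteins had small differences. Ehd2 had 129.5, 126.6, 128.2 and 109.3 CPM in Gent+Fos OE and 104.7, 110.4 and 82.9 CPM in Gent. Gent+Fos OE replicate 4 lay below the highest Gent library, so the groups overlapped by that value. The log2 fold change was 0.31 ± 0.137 (SE), with a 95% interval of 0.011 to 0.616 (edgeR adjusted p = 0.195, exact permutation p = 0.0857). The value of Ehd2 was 0.20 without Gent replicate 3 (edgeR adjusted p = 0.436), and limma-voom with sample quality weights gave 0.51 and called it (adjusted p 0.00476). Pacsin2 had 83.9, 85.4, 79.2 and 84.2 CPM against 74.4, 72.2 and 69.8 CPM. Its groups were tight and did not overlap, with the exact permutation p at its smallest, 0.0286. The difference was small, a log2 fold change of 0.20 ± 0.109 (SE) with a 95% interval of -0.036 to 0.446 (edgeR adjusted p = 0.264).

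Of the 6 members other than Cav1, edgeR called 0, against 0.134% of all 17155 tested genes called higher and 0.28% called lower. At an unadjusted p under 0.05, 3 of the 6 were higher (Cav2, Cavin1 and Ehd2) and 0 were lower, where 11.1% of all tested genes were higher and 13.4% lower. DESeq2 called 1 of the 6, Cav2, and of its 20975 tested genes it called 1.3% higher and 1.56% lower. limma-voom called 0. With sample quality weights it called 3 of the 6, where 3.1% of all tested genes were called higher and 2.51% lower, so that higher calls outnumbered lower ones, unlike in edgeR. Leaving out Gent replicate 2, edgeR called 1 of the 6, and 0.257% of the genes then tested were higher and 0.531% lower. The groups were fully separate, with Gent+Fos OE higher, for 3 of the 6 (Cav2, Cavin1 and Pacsin2) and for 11.3% of tested genes. The median log2 fold change of the 6 was 0.26, against -0.001 over all tested genes. Nothing is read from these counts about the set, since its members were chosen with this contrast known.

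**Figure D2:**
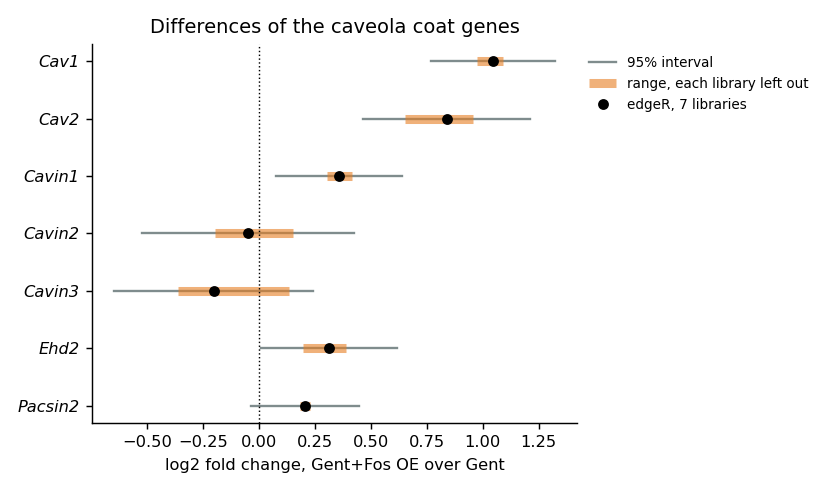
Log2 fold change of Gent+Fos OE over Gent for the 7 coat genes (edgeR, points), with 95% intervals (thin lines) and the range when each of the 7 libraries was left out in turn (thick bars). Cav1 and Cav2 lie farthest to the right, and the bars of Cavin2 and Cavin3 cross 0. Cav1 chose the set, so its interval is a description and not a test.

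Levels were compared between members per length, as CPM per kb of the gene length in the files, where the order in Gent+Fos OE was Cavin1, Cav1, Cavin3, Cav2, Ehd2, Pacsin2 and Cavin2. Cavin1 had 75.1 ± 7.58 CPM per kb (SD, n = 4) with Fos and 58.6 ± 3.34 (SD, n = 3) in Gent. Cav1 had 51.9 ± 5.24 and 25.2 ± 0.684, Cavin3 33.3 ± 2.28 and 38.2 ± 13.9, and Cav2 31.1 ± 2.39 and 17.4 ± 4.08 CPM per kb. Ehd2 had 24.1 ± 1.85 and 19.4 ± 2.84, Pacsin2 16.9 ± 0.557 and 14.7 ± 0.466, and Cavin2 4.66 ± 0.969 and 4.81 ± 1.15 CPM per kb. Cavin1 was thus the most abundant member and Cavin2 the least in both groups. In Gent, Cav1 stood after Cavin3 and Cav2 after Ehd2. Per length, Cavin1 lay above Cav1 in 7 of 7 libraries. Cav1 lay above Cavin3 in all 4 Gent+Fos OE libraries, at 46.9 to 59.1 against 31.2 to 36.4 CPM per kb, and below it in all 3 Gent libraries, at 24.4 to 25.8 against 29.4 to 54.3 CPM per kb. These pairs hold Cav1, whose difference chose the set, and no test of them is given, although they count in the adjustment that follows. The other neighbours in the order over all libraries were compared within libraries by a two-sided exact sign-flip permutation test, adjusted over the 6 pairs of neighbours. Ehd2 lay above Pacsin2 and Pacsin2 above Cavin2 in 7 of 7 libraries (adjusted p = 0.0312 each, from the smallest possible permutation p of 0.0156). Cavin3 and Cav2 did not pass over the 7 libraries pooled (adjusted permutation p = 0.0938), nor did Cav2 and Ehd2 (0.525). The order of the latter pair was not the same in both groups. Cav2 lay above Ehd2 in all 4 Gent+Fos OE libraries, at 28.3 to 33.4 against 21.4 to 25.3 CPM per kb, and below it in Gent replicates 1 and 2 but not in replicate 3.

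Counts relative to Cav1 within a library do not depend on scaling between libraries. Cav2 counts were 50.3 to 75.5% of Cav1 counts in Gent and 52.7 to 69.0% in Gent+Fos OE, so the groups overlapped. That overlap came from Gent replicate 2, at 50.3%. Gent replicates 1 and 3, at 74.0 and 75.5%, lay above every Gent+Fos OE library. Cavin1 counts were 227 to 266% of Cav1 in Gent and 130 to 174% in Gent+Fos OE. Cavin3 counts were 56.2 to 107% of Cav1 in Gent and 26.3 to 35.3% in Gent+Fos OE. Cavin2 was at 13.9 to 21.3% and 6.09 to 9.36%, Ehd2 at 93.5 to 131% and 63.0 to 78.5%, and Pacsin2 at 78.7 to 85.9% and 38.9 to 52.9% in Gent and Gent+Fos OE. For 5 of the 6 the groups were separate and lower in Gent+Fos OE, with Cav2 the exception because of Gent replicate 2. Cav1 was chosen for its difference, which sets the direction of these ratios, so they carry no test.

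**Figure D3:**
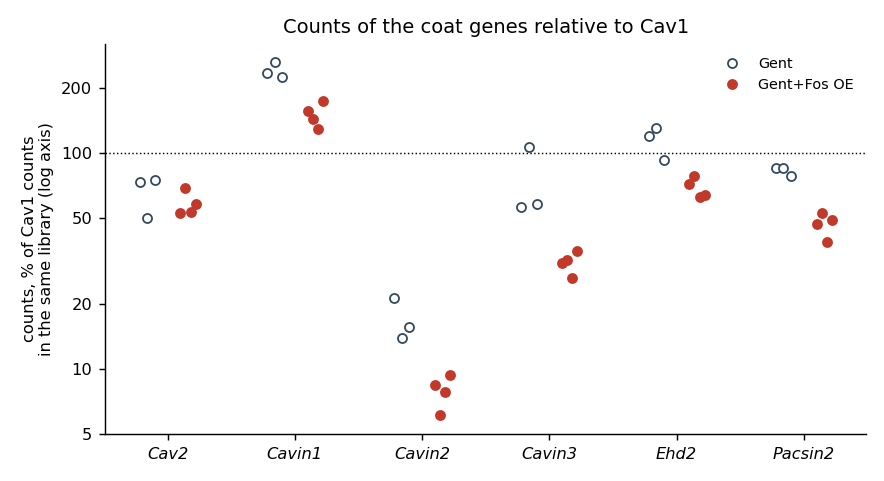
Counts of each coat gene as a percent of Cav1 counts in the same library (log axis), for Gent (open points) and Gent+Fos OE (filled points), with 100% dotted. Cav2 overlaps between the groups at 50.3 to 75.5%, through Gent replicate 2 at 50.3%, and the other 5 genes are lower in Gent+Fos OE.

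The caveolins together summed to 126.3 to 155.6 CPM in Gent and to 271.1 to 312.7 CPM in Gent+Fos OE. The cavins together summed to 266.6 to 325.7 and 295.4 to 374.1 CPM, which overlap. That overlap came from Gent replicate 2, at 325.7 CPM. Gent replicates 1 and 3, at 272.8 and 266.6 CPM, lay below every Gent+Fos OE library. Caveolin CPM per cavin CPM was 0.388 to 0.584 in Gent, lowest in replicate 2, against 0.725 to 0.935 in Gent+Fos OE. Cav1 made up 13.2 to 15.4% of the CPM of all 7 members in Gent and 20.4 to 23.8% in Gent+Fos OE.

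The profile of each gene over the 7 libraries was compared with that of Cav1 by the root mean square difference of centred log2 CPM, among the 10919 genes averaging 10 CPM or more. The 5 nearest were Prss23 (0.139), a secreted serine protease, Sgk1 (0.185), a kinase of ion transport, Serpinb8 (0.188), a protease inhibitor, Tmprss3 (0.188), a membrane protease of the inner ear, and Herc3 (0.193), a ubiquitin ligase. Cav2 ranked 15 (0.229) among them. Cavin1 ranked 640, Ehd2 1134, Pacsin2 2135, Cavin2 6503 and Cavin3 8022. The measure follows the group difference that chose Cav1, so the ranks are a description. With a minimum mean of 1 CPM, 1 of these 5 genes stayed among the nearest 5.

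Genes beside Cav2 and Cav1 on chromosome 6 gave 7 tested genes, of which edgeR called 0. At an unadjusted p under 0.05, 1 was higher and 1 lower, where 11.1% of all tested genes were higher and 13.4% lower. Met, the receptor of hepatocyte growth factor and the next listed gene after Cav1 (chr6:17463800-17573980), averaged 34.2 ± 12.1 CPM (SD, n = 3) in Gent and 66.3 ± 11.1 (SD, n = 4) with Fos. Its log2 fold change was 0.96 ± 0.24 (SE) with an edgeR adjusted p of 0.0729. Tes, a focal adhesion protein on the other side of Cav2 (chr6:17065149-17105828), had a log2 fold change of 0.16 ± 0.112 (SE, edgeR adjusted p = 0.371). Capza2, an actin capping subunit beyond Met, was at -0.06 ± 0.121. Tfec, a transcription factor of macrophages farther out, was at -0.88 ± 0.185 (edgeR adjusted p = 0.0428) with a mean of 5.01 CPM. DESeq2 called 2 of the 7, Met as higher (1.3% of all genes it tested) and Tfec as lower (1.56%). With the gene length correction Tes was at 0.02 and Met at 0.81, and without Gent replicate 2 Met was at 0.68.

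**Figure D4:**
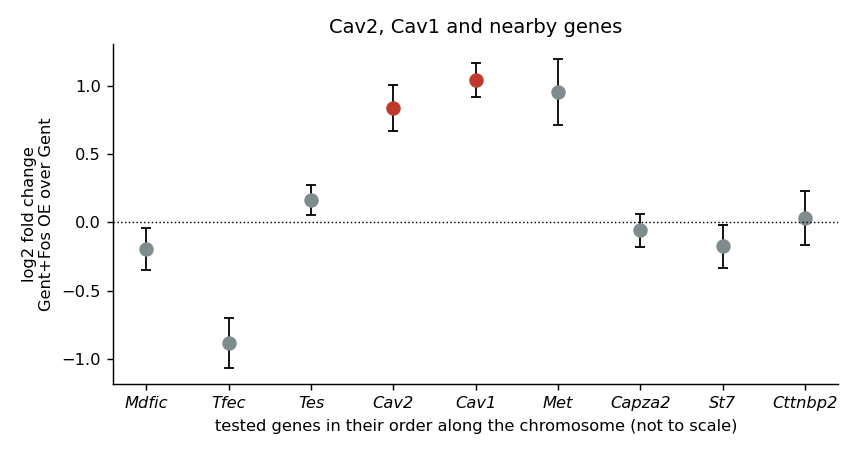
Log2 fold change of Gent+Fos OE over Gent with SE (bars) for Cav2 and Cav1 (red) and the tested genes near them (grey), in chromosome order and not to scale. Cav2, Cav1 and Met lie between 0.84 and 1.05, Tes and Capza2 lie near 0, and Tfec lies at -0.88.

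Relatives of the coat proteins are EHD and pacsin paralogs, the muscle forms Cav3 and Cavin4, dynamins that cut the neck, flotillins of other membrane domains, and the caveola partners Flna, Ror1 and Plvap. Of 14 tested relatives edgeR called 0, with 3 higher and 1 lower at an unadjusted p under 0.05 and a median log2 fold change of 0.07, which was 0.01 with the gene length correction. Over all tested genes 11.1% were higher and 13.4% lower at that limit. DESeq2 also called 0 of them. Ehd1, an EHD2 paralog of recycling endosomes, averaged 182 ± 20 CPM (SD, n = 3) in Gent and 140 ± 10.6 (SD, n = 4) with Fos. Its log2 fold change was -0.38 ± 0.126 (SE, edgeR adjusted p = 0.124), the lowest of the list. Dnm3, a dynamin, had the highest value among relatives averaging 1 CPM or more, 0.63 ± 0.224 (SE, edgeR adjusted p = 0.143), but 0.002 with the gene length correction. Flna, the actin crosslinker that anchors caveolae, was the most abundant relative at 1220 ± 87.5 CPM (SD, n = 4) in Gent+Fos OE against 1210 ± 231 (SD, n = 3). Cav3 was at or below 0.173 CPM in every library, and Cavin4 averaged 0.961 CPM with Fos and 0.526 CPM without, so the muscle forms were near 0.

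Receptors, channels and kinases known to sit in caveolae gave 19 tested genes, of which edgeR called 0. At an unadjusted p under 0.05, 2 were higher and 1 lower, where 11.1% of all tested genes were higher and 13.4% lower. The median log2 fold change of the cargo genes was 0.30, against -0.001 over all tested genes, and 16 of 19 were above 0. DESeq2 called 0 of them as well. Over all tested genes the log2 fold change was higher for longer genes (Spearman's rho 0.378, across genes that are not independent), and the cargo median was 0.14 with the gene length correction and 0.13 without Gent replicate 2. Atp2b1, a plasma membrane calcium pump, had 291 ± 11 CPM (SD, n = 4) with Fos and 203 ± 69.2 (SD, n = 3) without, and its log2 fold change was 0.52 ± 0.211 (SE, edgeR adjusted p = 0.173). Its value was 0.26 without Gent replicate 2 and 0.16 with the gene length correction. Ptch1, the Hedgehog receptor, was at 0.67 ± 0.242 (SE, edgeR adjusted p = 0.146), with 0.38 and 0.34 under the same changes. Scarb1, the HDL receptor, was lowest at -0.42 ± 0.131 (SE, edgeR adjusted p = 0.117), and at -0.65 with the length correction. Itgb1, the beta1 integrin, was the most abundant at 1310 ± 81.8 CPM with Fos and 1230 ± 98.7 in Gent.

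**Figure D5:**
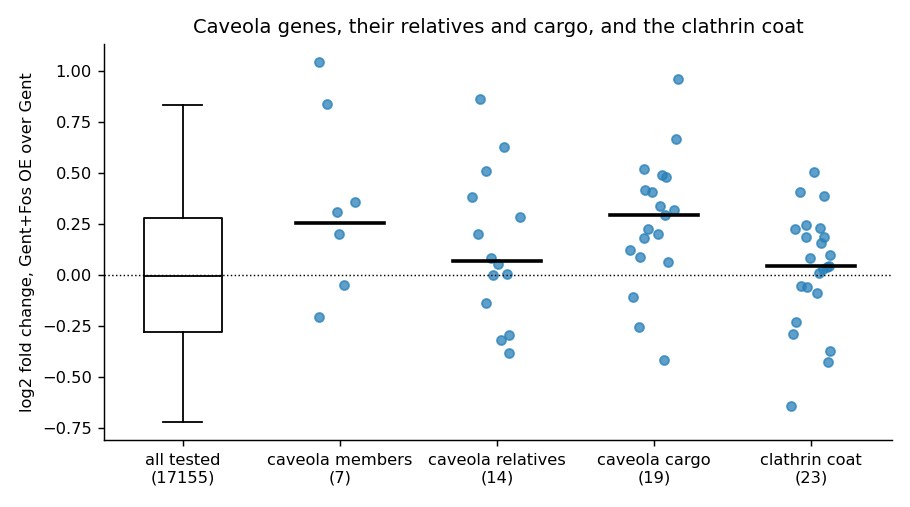
Log2 fold change of Gent+Fos OE over Gent for each tested gene of 4 lists (points, list medians as bars, Cav1 left out of the first median) beside all 17155 tested genes (box, quartiles with 5th and 95th percentile whiskers). Medians are 0.26 for the coat genes, 0.07 for relatives, 0.30 for cargo and 0.05 for the clathrin coat, against -0.001 over all tested genes.

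Markers of cell types rich in caveolae were set beside these values. Of 15 endothelial markers 12 were tested and edgeR called 0 (2 higher and 0 lower at an unadjusted p under 0.05), 6 of them being above 0 and 6 below, with summed levels of 157 to 221 CPM in Gent and 146 to 193 CPM with Fos. The values that follow are those of Gent+Fos OE and then of Gent. The defining marker Pecam1 was at 0.932 ± 0.494 (SD, n = 4) and 1.13 ± 0.364 CPM (SD, n = 3), and Cdh5 at 14.8 ± 3.07 and 8.70 ± 1.79 CPM. Emcn, an endothelial sialomucin, made up most of the sum at 103 ± 17.7 and 126 ± 43.2 CPM, and Erg, an endothelial transcription factor, was at 3.49 ± 1.01 and 5.30 ± 3.08 CPM. Flt1, a VEGF receptor of low level, had the highest log2 fold change of the list, 2.26 ± 0.307 against 0.551 ± 0.254 CPM (log2 fold change 2.04, edgeR adjusted p = 0.0281). Of 12 smooth muscle and pericyte markers edgeR called 0 (2 higher and 3 lower at an unadjusted p under 0.05), with sums of 494 to 658 and 612 to 884 CPM. Acta2, smooth muscle actin, was at a log2 fold change of -1.35 (edgeR adjusted p = 0.025), Cnn1, calponin, at -2.13 (0.017) and Notch3, a pericyte receptor, at 0.89 (0.0247). DESeq2 called Flt1 and these 3 genes, where it called 1.3% of all genes it tested higher and 1.56% lower. Adipocyte markers summed to 10.3 to 12.4 and 10.4 to 15.3 CPM, with Plin1 at 0 in all libraries. Striated muscle markers summed to 4.53 to 6.28 and 2.50 to 6.13 CPM. These sums overlapped between the groups, and so did those of mesenchyme (9820 to 15000 and 12500 to 16000 CPM), supporting cells (2260 to 2590 and 2190 to 3120 CPM), hair cells (810 to 1010 and 675 to 829 CPM) and nonsensory epithelium (2100 to 3160 and 1700 to 2280 CPM). A sum follows its most abundant genes, in mesenchyme Col1a2 and Coch with means of 5430 and 2780 CPM. Its overlap therefore does not describe each marker. Schwann cell markers summed to 379 to 544 and 355 to 502 CPM, neuronal markers to 53.9 to 75.4 and 45.0 to 63.3 CPM, and erythroid markers to 0.429 to 1.07 and 0.411 to 0.664 CPM. Across all these lists edgeR called 0 genes, and at an unadjusted p under 0.05 there were 4 higher and 0 lower each among hair cell and nonsensory epithelium markers, 1 and 3 each in mesenchyme and Schwann cells, 2 and 1 in supporting cells, and 2 and 0 in neurons, where 11.1% of all tested genes were higher and 13.4% lower. Groups were separate for macrophage markers, at 998 to 1660 CPM against 1830 to 2350 CPM in Gent (8 of 10 lower at an unadjusted p under 0.05, against 13.4% of all tested genes, and edgeR called 0). They were also separate for melanocyte markers, at 45.7 to 50.9 and 87.6 to 124 CPM, where edgeR called 2 of 6 lower, against 0.28% of all tested genes, Tyrp1 (log2 fold change -1.87, adjusted p 0.00837) and Dct (-1.40, adjusted p 0.00404), both pigment enzymes. These 2 calls depended on the fit. Of 17 alternative fits, 9 lost the call of Tyrp1 (highest adjusted p 0.0562) and 7 that of Dct (highest adjusted p 0.0731). The part of these cell types in the caveolin values was not tested.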

How the data were processed

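RNA was sequenced from 7 libraries of pooled utricles, 4 Gent+Fos OE and 3 Gent by the labels, while the study's methods state 3 replicates per condition. Deposited values are raw counts, whole numbers for each gene, which the authors made with featureCounts 2.0.6 on an mm10 annotation, per the file headers, from paired-end reads counted singly, without strand, multi-mapping or multi-gene counting. The submitters' processing notes name Trim Galore 0.6.10, HISAT2 2.2.1 and DESeq2 1.34.0, and the study's methods name mm39. Without strand, antisense reads cannot be told from sense reads. No exon of a member overlapped another gene.

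Genes passing filterByExpr (17155) were scaled by TMM, and groups were tested without covariates by the quasi-likelihood F-test of edgeR, with Benjamini-Hochberg adjustment over all of them. Calls needed an adjusted p below 0.01 and a log2 fold change beyond 0.25 either way. Single genes were also tested by a two-sided exact permutation test of mean log2 CPM (prior count 2) over 35 splits. Symbols came from GENCODE vM39 by Ensembl ID (31674 of 32285 genes), and 199 of 200 list genes were found. Gene lists covered relatives, cargo, the clathrin coat, chromosome neighbours and cell type markers. Named genes were the members, Fos, called list genes, in each list the 2 most abundant genes and the highest and lowest by log2 fold change among tested genes averaging 1 CPM or more, defining markers and the 5 genes most like Cav1. Marker lists are given mainly by their sums, so not every gene the rule allows is named. Cav3, Cavin4, Ap2a1, Ap2a2 and Ap2b1 lie outside that rule and were named after their values were seen. Members and lists were chosen with earlier results of these data known. The labels call the libraries biological replicates, and replicates of a group differed beyond read sampling.

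Alternatives were 17 other fits (DESeq2, limma-voom with and without sample quality weights, RLE and upper quartile scaling, filters, gene length correction by loess with span 0.3, replicate block, leaving out each library), a minimum of 1 CPM for likeness and TPM for levels. The edgeR fits (as described, with the length correction and with the block), DESeq2 and limma-voom were tested on simulated data. R 4.3.3, edgeR 4.0.16, limma 3.58.1, DESeq2 1.42.0, Python 3.11.15, pandas 2.3.3, scipy 1.17.1 and matplotlib 3.10.9 were used.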

Additional observations from a re-analysis of the deposited data

Results flagged for a closer look

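A library far from the others of its group was looked for in 14 sets of 4 Gent+Fos OE values, of which 3 were marked, and chance alone marks about 1 in 20. Cavin2 stood at 9.83 CPM in Gent+Fos OE replicate 2, where the others had 15.1 to 16 CPM. Ehd2 stood at 109.3 CPM in Gent+Fos OE replicate 4, below the others at 127 to 129 CPM. Fos stood at 167.0 CPM in Gent+Fos OE replicate 3, above the others at 149 to 151 CPM.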

How the results depend on the processing

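Cav2 kept its direction in all 17 alternative fits (log2 fold change 0.65 to 0.99), as did Cavin1 (0.30 to 0.44), Ehd2 (0.20 to 0.51) and Pacsin2 (0.17 to 0.23). Cav1, whose difference chose the set, ranged from 0.98 to 1.16, which is a description. Cavin2 (-0.05) turned to 0.018 with sample quality weights, 0.067 with the length correction, 0.025 with the block and the length correction, and -0.19 to 0.15 when each library was left out, above 0 without Gent+Fos OE replicate 2 (0.09) and without Gent replicate 1 (0.15). Cavin3 (-0.20) turned to 0.08, 0.096 and 0.092 under the same 3 fits and ranged from -0.36 to 0.13 with each library left out, above 0 only without Gent replicate 2. Capza2 ranged from -0.127 to 0.034 with each library left out, above 0 without Gent replicate 1, and Dnm3 turned to -0.016 with the block and the length correction. Of the AP-2 subunits, Ap2a2 turned to 0.008 with quality weights, Ap2b1 to -0.026 with the length correction and -0.004 with the block added, and Ap2a1 ranged from -0.033 to 0.077 with each library left out, below 0 without Gent+Fos OE replicate 1 and without Gent replicate 3. Of the 6 members other than Cav1, 0 were called by edgeR, 1 by DESeq2, 3 with sample quality weights (Cav2, Cavin1 and Ehd2) and 0 to 1 with each library left out. Their median (0.259) was 0.317 with quality weights and as low as 0.19 without Gent replicate 3. Quality weights called 1 relative, and 2 neighbours of Cav1 were called both by DESeq2 and with quality weights. All genes called numbered 71, against 600 by DESeq2, 961 with quality weights, 204 with no filter, and 5 to 138 with each library left out (5 without Gent+Fos OE replicate 3, 138 without Gent replicate 2). Of the 5 genes most like Cav1, 1 stayed with the lower minimum. The cause of these shifts was not tested. Same-numbered libraries did not deviate together (correlations 0.064, -0.038 and 0.032), so the numbers do not pair them. With the replicate block, 0 genes were called, Cav2 was at 0.88 (adjusted p 0.125) and Fos at 2.03 (adjusted p 0.0296). Member counts ran from 321 to 8630 per library, so the spread between 4 and 3 libraries limits these differences more than depth.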

Other observations

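Clathrin and its adaptors form the other main coat of endocytosis. Of 23 tested genes of that coat edgeR called 0, with 2 higher and 3 lower at an unadjusted p under 0.05 and a median log2 fold change of 0.05, which turned to -0.03 with the gene length correction. Over all tested genes 11.1% were higher and 13.4% lower at that limit. Hip1, which links clathrin to actin, was highest at 0.51 ± 0.156 (SE, edgeR adjusted p = 0.111) but at 0.14 with the gene length correction, with 132 ± 17.7 CPM (SD, n = 3) in Gent and 187 ± 28.4 (SD, n = 4) with Fos. Among the 5 subunits of the AP-2 adaptor the values went both ways. Ap2s1 was lowest at -0.64 ± 0.19 (SE, edgeR adjusted p = 0.107) and Ap2m1 was at -0.37 ± 0.147 (SE, edgeR adjusted p = 0.169), and without Gent replicate 2 they were at -0.36 and -0.22. With the length correction Ap2s1 was at -0.34. Ap2a2 was at -0.06, Ap2a1 at 0.04 and Ap2b1 at 0.19 on the log2 scale, each turning sign under some alternative. Cltc, the clathrin heavy chain, was the most abundant at 720 ± 24.9 CPM (SD, n = 4) with Fos and 614 ± 204 (SD, n = 3) without. The summed CPM of the list, 3000 to 3470 in Gent and 3210 to 3390 with Fos, overlapped between the groups.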
